A study of Mus musculus with 8 samples.

Results

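The 9 genes described here encode secreted signals and antagonists that the connective tissue under the colon epithelium makes for the crypts, namely the R-spondins Rspo1, Rspo2 and Rspo3, the Wnt ligands Wnt2b and Wnt5a, the Wnt antagonist Sfrp1, the bone morphogenetic proteins Bmp4 and Bmp5 and their antagonist Grem1. They were taken by symbol from a table of 53465 genes, and all 9 were among the 16380 genes with enough signal to be tested. None of the 9 passed the test over all genes between mice labelled Arg1 ko and wild-type controls (limma with Benjamini-Hochberg adjustment, smallest adjusted p = 0.522 for Rspo3). Rspo3 was the single member whose values in the 4 Arg1 ko mice all lay below those of the 4 controls (1 of 9 members, beside 4.03% of all tested genes with such a separation in either direction). Every other member had an SD between the control mice that was larger than the size of the difference between the group means.

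R-spondins bind Lgr receptors on crypt base cells and remove the ubiquitin ligases Rnf43 and Znrf3 from the cell surface, so that Wnt receptors stay there and the Wnt signal is amplified. Wnt ligands hold crypt base cells in a dividing state, while bone morphogenetic proteins (BMPs) favour maturation toward the lumen, and antagonists such as gremlin 1 keep BMP activity low at the crypt base. In the mouse gut these signals come largely from fibroblasts of the lamina propria and submucosa, with smooth muscle and lymphatic endothelium as further sources of some of them.

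RNA was sequenced from the colon of 8 mice on the B6 background, 4 of the genotype labelled Arg1 ko, which carried a conditional, cell-specific Arg1 deletion, and 4 littermates labelled Arg1 wt that expressed Arg1, here called wild type and kept apart from the others before the experiment. The Arg1 product, arginase 1, converts arginine to ornithine and urea, and the labels name neither the cell type of the deletion nor the Cre driver. All 8 mice had colitis from DSS (dextran sulfate sodium, which damages the gut lining), drunk at 2.5% for 1 week and followed by plain water until day 10, and no mouse without DSS was analysed here. Their age was 7 to 12 weeks, with age and sex matched between genotypes. Values are regularised log2 values (rlog), which pull weakly expressed genes toward their mean, and all differences below are Arg1 ko minus wild type on that scale.

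The labels call the sample colon tissue, whereas the labelled preparation is one of epithelial aggregates (30 mM EDTA), and the libraries held abundant transcripts of both epithelium and deeper layers. All 8 epithelium markers were tested, with a mean rlog of 14.32 to 14.71 in the wild-type libraries and 14.38 to 14.58 in the Arg1 ko libraries, Krt8, Krt19 and Epcam being highest. The 7 smooth muscle markers, led by Myh11, Acta2 and Tagln, stood nearly as high, at 13.69 to 14.16 and 13.87 to 14.06, and the 12 fibroblast markers, led by Dcn, Col3a1 and Col1a2, at 10.74 to 11.06 and 11.09 to 11.24. No marker of these 3 lists was at 0. Arg1 itself had rlog values of 5.59, 5.57, 5.02 and 5.58 in wild type 1 to 4 and 5.06, 4.87, 5.15 and 5.19 in Arg1 ko 1 to 4, so that of the library labelled wild type 3 was within the Arg1 ko range (difference -0.37, limma adjusted p = 0.522). Over all tested genes this library also lay nearer to the Arg1 ko libraries, at Euclidean distances of 26.2 to 36.9 between rlog profiles, than to the other wild-type libraries, at 55.9 to 69.6. The distances of wild type 4 were 52.4 to 55.7 to the Arg1 ko libraries and 54.5 to 75.2 to the other wild-type libraries. In the same order, those of wild type 2 were 43.4 to 51.7 and 40.5 to 56.7. Those of wild type 1 were 53.1 to 65.0 and 40.5 to 75.2. What the Arg1 value and the distances say of the label of wild type 3 was not tested. Wild type 1 and 2 stood apart in another way. Their 80 ribosomal protein genes lay 0.66 and 0.39 above the mean of 8 libraries, against -0.35 to 0.097 in the other 6, and their long transcripts (4653 bases and over) were low against the short ones (2001 bases and under), by -0.59 and -0.32 against 0.038 to 0.26. Sample numbers run separately in each genotype, so that any batch they mark and the genotype cannot be told apart.

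Per transcript length, the BMP ligands and both antagonists stood above the Wnt ligands and the R-spondins. On the scale of rlog minus log2 of the longest transcript in kilobases, Bmp4 had the highest level at 7.86 ± 0.15 (SD, n = 8 libraries of both genotypes), followed by Grem1 at 7.68 ± 0.28, Sfrp1 at 7.63 ± 0.25 and Bmp5 at 7.20 ± 0.28. Neighbours among these 4 overlapped in their ranges over libraries. The mean of Bmp5 lay 1.46 above that of Wnt2b at 5.74 ± 0.43, with no overlap of their ranges, while Wnt2b overlapped with Wnt5a at 5.56 ± 0.21, as Wnt5a did with Rspo3 at 5.40 ± 0.17. Rspo1 at 4.72 ± 0.18 and Rspo2 at 2.19 ± 0.15 each lay below the full range of the member before them, and the step of 2.54 from Rspo1 to Rspo2 was the largest between neighbours. Among the R-spondins the order was thus Rspo3, Rspo1, Rspo2 on this scale, and Rspo4 was nearly unmeasured, at rlog values of 0.22 to 0.47. Without scaling for length, the mean rlog of Sfrp1 lay above that of 67.6% of all tested genes and that of Rspo2 above only 7.33%.

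**Figure D1:**
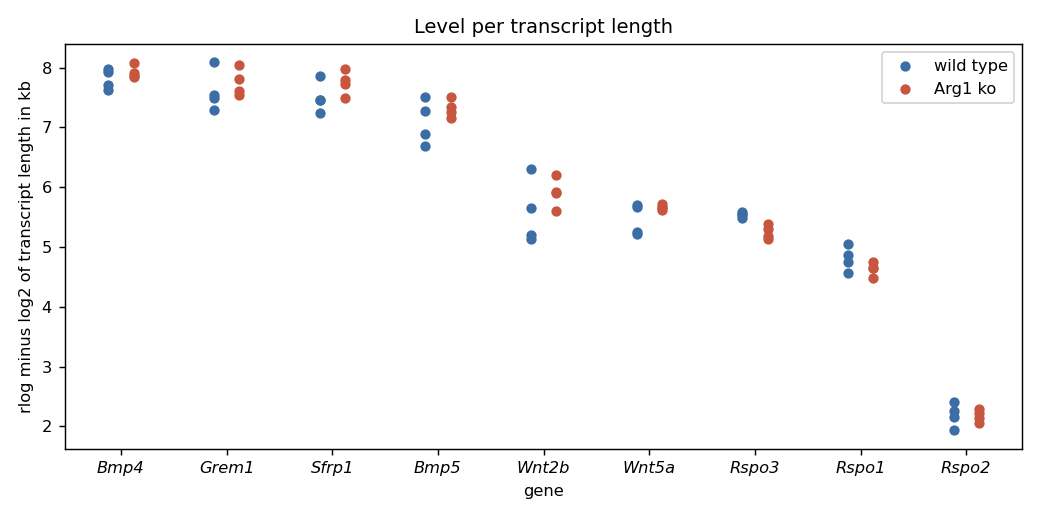
Level of the 9 niche genes per transcript length, as rlog minus log2 of the longest transcript in kilobases (y axis), ordered from high to low; each point is a library, 4 wild type in blue and 4 Arg1 ko in red. Bmp4, Grem1, Sfrp1 and Bmp5 are the 4 highest, and Rspo2 lies lowest, at a mean of 2.19 and 2.54 below Rspo1.

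Rspo3 (ENSMUSG00000019880, chromosome 10, 29452416 to 29535867 on the minus strand, GRCm38) encodes the R-spondin that stromal fibroblasts and lymphatic endothelium make below the crypts. It had rlog values of 7.22, 7.17, 7.11 and 7.16 in wild type 1 to 4 and of 6.92, 7.02, 6.81 and 6.76 in Arg1 ko 1 to 4. All 4 Arg1 ko libraries were below all 4 wild-type libraries, with a gap of 0.093 between the lowest wild-type and the highest Arg1 ko value. The wild-type mean was 7.16 ± 0.044 (SD, n = 4) and the Arg1 ko mean 6.88 ± 0.11 (SD, n = 4), which differ by -0.29 (standard error 0.11, 95% interval -0.53 to -0.048), an Arg1 ko to wild-type ratio of 0.819 on the rlog scale. The unadjusted limma p was 0.0235, and 4.37% of all tested genes had a p under 0.05 in the same direction. Groups apart in this direction were found in 1.67% of them. Adjusted over all genes, Rspo3 missed the threshold (limma adjusted p = 0.522; range over the alternatives 0.0561 to 0.819). The 0.0561 came with each library set relative to its fibroblast markers, and Rspo1 had the same value there. It was the smallest limma adjusted p of any gene in that setting. There, 7928 of 16380 genes were lower in Arg1 ko with an unadjusted p under 0.05. With the library labelled wild type 3 left out the difference was -0.31, and with wild type 1 and 2 left out -0.26.

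In bulk RNA, fewer cells of a type and less RNA per cell cannot be told apart. The endothelium list, which includes the lymphatic markers Lyve1 and Flt4, had a mean rlog of 8.84 to 9.41 over 8 tested markers in the wild-type libraries and of 9.07 to 9.21 in the Arg1 ko libraries, with 4 markers higher and 4 lower. Pecam1, Lyve1 and Vwf were its most abundant members, and none was at 0. The ranges of the list mean overlapped between the groups. The 8 markers of subepithelial fibroblasts, led by Ptch1, F3 and Foxf1, ranged from 7.75 to 8.17 in wild type and from 7.95 to 8.05 in Arg1 ko, and the 6 of adventitial fibroblasts, led by C3, Cd81 and Ly6c1, from 9.74 to 9.98 and from 9.78 to 9.90. Of the enteric glia and neuron markers 6 are reported, and all 6 were lower in Arg1 ko with a median of -0.11, none with groups apart or past the test. Their mean ranged from 7.46 to 7.98 in wild type and from 7.45 to 7.53 in Arg1 ko, and Uchl1, the most abundant, differed by -0.52 (limma adjusted p = 0.522). The part of these cell types in the Rspo3 difference was not tested.

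Rspo1 (ENSMUSG00000028871, chromosome 4, 124986430 to 125009099), which like Rspo3 amplifies Wnt signals through Lgr receptors, had rlog values of 5.45, 5.92, 5.62 and 5.75 in wild type and 5.52, 5.36, 5.53 and 5.63 in Arg1 ko. Wild type 2 was highest and Arg1 ko 2 lowest, and wild type 1 and the library labelled wild type 3 lay among the Arg1 ko values. The difference was -0.17 with a standard error of 0.13 (limma adjusted p = 0.592), and its 95% interval of -0.47 to 0.12 included 0. It was -0.094 without wild type 2, -0.084 after a correction for transcript length and -0.52 relative to the fibroblast markers. Rspo2 (ENSMUSG00000051920, chromosome 15, 43020794 to 43170826) was the weakest member, with 3.67, 4.00, 4.14 and 3.89 in wild type and 3.96, 4.04, 3.89 and 3.80 in Arg1 ko. Both its lowest and its highest value were wild type, and the means of 3.93 ± 0.20 (SD, n = 4) and 3.92 ± 0.10 (SD, n = 4) differed by -0.0049 (95% interval -0.28 to 0.27), on a scale that shrinks weakly expressed genes most. Rspo3 overlaps, over 404 exon bases, the antisense gene Gm48159, which was listed at 0 in every library.

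**Figure D2:**
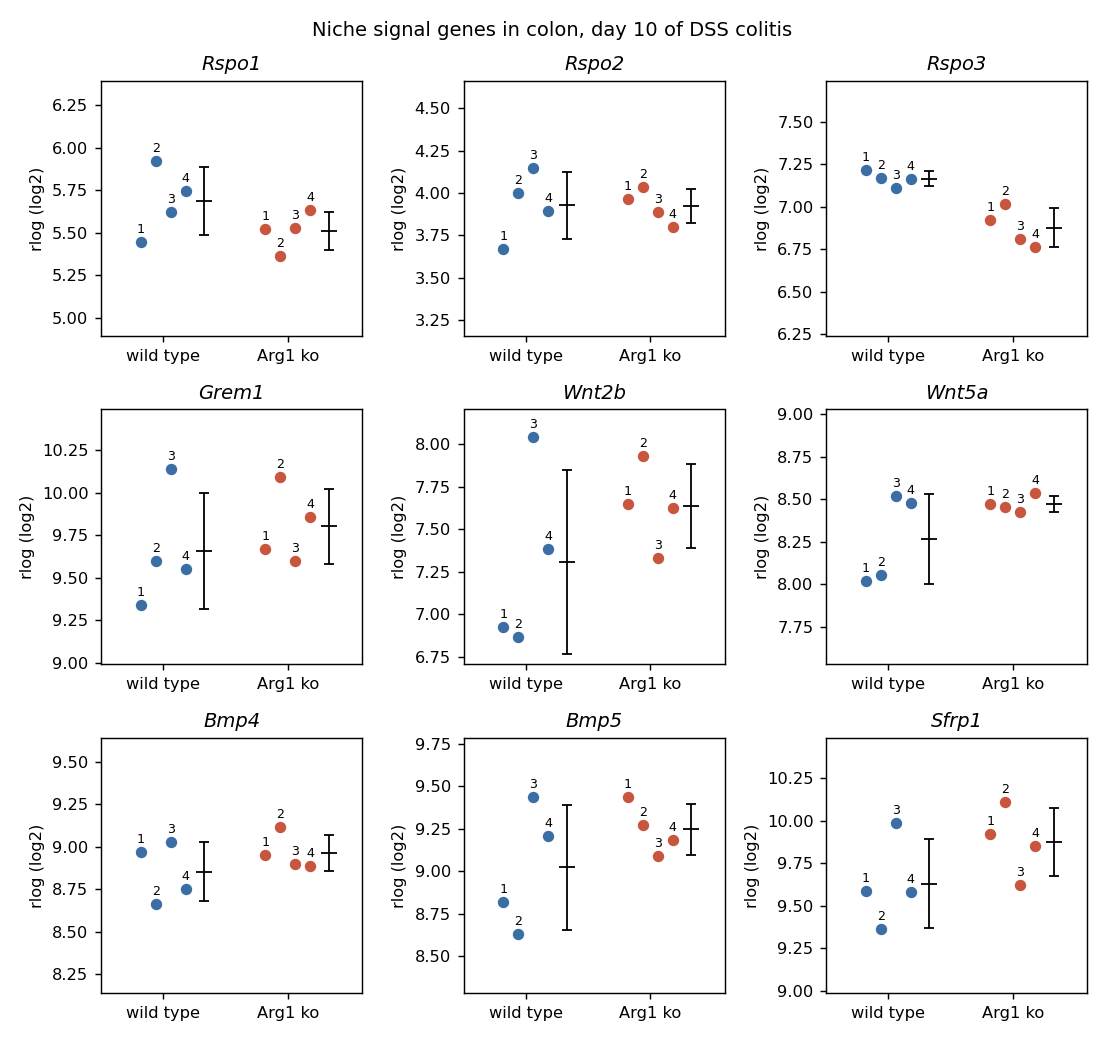
Rlog value (log2, y axis) of each niche gene in the 4 wild-type (blue) and 4 Arg1 ko (red) libraries, with library numbers beside the points and the mean with SD in black; every panel spans the same number of log2 units. Rspo3 alone shows 2 groups that do not overlap, while the wild-type values of Wnt2b spread from 6.87 to 8.04.

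Wnt2b (ENSMUSG00000027840, chromosome 3, 104945272 to 104961921), a stromal ligand of the canonical pathway that acts through beta-catenin, had rlog values of 6.93, 6.87, 8.04 and 7.39 in wild type 1 to 4 and 7.65, 7.93, 7.33 and 7.63 in Arg1 ko 1 to 4. Wild type 1 and 2 were below every Arg1 ko library, while the library labelled wild type 3 was the highest of all 8. Wild type averaged 7.31 ± 0.54 (SD, n = 4) and Arg1 ko 7.64 ± 0.25 (SD, n = 4). Their difference of 0.33 had a standard error of 0.25 and a 95% interval of -0.22 to 0.88 (limma adjusted p = 0.592; range over the alternatives 0.0854 to 0.948). It was 0.57 without the library labelled wild type 3, while leaving out wild type 1 and 2 gave -0.079, and the value was -0.018 relative to the fibroblast markers. Leaving out wild type 1 alone or wild type 2 alone gave 0.20 and 0.18. The sign for Wnt2b thus depended on which wild-type libraries were used.

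Wnt5a (ENSMUSG00000021994, chromosome 14, 28504750 to 28527448), which signals mainly without beta-catenin through receptors such as Ror2, had 8.02, 8.05, 8.52 and 8.48 in wild type and 8.47, 8.45, 8.43 and 8.54 in Arg1 ko. The wild-type libraries formed 2 pairs, with 1 and 2 below all Arg1 ko values and the other pair among them. The Arg1 ko SD was 0.046 against 0.27 in wild type, and the difference of 0.20 (standard error 0.14, limma adjusted p = 0.561) was -0.026 without wild type 1 and 2, -0.14 relative to the fibroblast markers and 0.056 after a correction for transcript length. It was 0.12 without wild type 1 alone and 0.13 without wild type 2 alone. Wnt5a has the longest transcript of the 9 genes, at 7010 bases, and beyond that correction the part of transcript length in its difference was not tested.

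Sfrp1 (ENSMUSG00000031548, chromosome 8, 23411502 to 23449632), a secreted protein that binds Wnt ligands and keeps them from their receptors, had 9.59, 9.37, 9.99 and 9.58 in wild type and 9.92, 10.11, 9.62 and 9.85 in Arg1 ko. Of the wild-type libraries, 3 lay below every Arg1 ko value and the library labelled wild type 3 above 3 of them. The difference of 0.25 had a standard error of 0.15 (95% interval -0.086 to 0.58; limma adjusted p = 0.541), and it was 0.37 with the library labelled wild type 3 left out, 0.092 with wild type 1 and 2 left out, 0.16 with wild type 2 alone left out, and -0.10 relative to the fibroblast markers.

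Bmp4 (ENSMUSG00000021835, chromosome 14, 46383520 to 46390669), a ligand made by fibroblasts next to the epithelium, had rlog values of 8.97, 8.66, 9.03 and 8.75 in wild type and 8.95, 9.12, 8.90 and 8.88 in Arg1 ko. Its values gave a wild-type mean of 8.85 ± 0.17 (SD, n = 4), an Arg1 ko mean of 8.96 ± 0.11 (SD, n = 4), a difference of 0.11 and a 95% interval of -0.15 to 0.36 (limma adjusted p = 0.688), and -0.24 relative to the fibroblast markers. Leaving out single libraries moved it to 0.045 without wild type 2, to 0.057 without Arg1 ko 2 and to 0.17 without the library labelled wild type 3, and the length correction gave 0.18. Bmp5 (ENSMUSG00000032179, chromosome 9, 75775364 to 75900310), another BMP ligand of the same stromal cells, had 8.82, 8.63, 9.44 and 9.21 in wild type and 9.44, 9.27, 9.09 and 9.19 in Arg1 ko. Wild type 1 and 2 were below all Arg1 ko values and the other wild-type libraries lay within their range. The difference of 0.22 (standard error 0.17, limma adjusted p = 0.599) was -0.075 without wild type 1 and 2 and -0.12 relative to the fibroblast markers. It was 0.093 without wild type 2 alone and 0.36 without the library labelled wild type 3.

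Grem1 (ENSMUSG00000074934, chromosome 2, 113746164 to 113758646), the gremlin that binds BMP ligands outside the cell, had 9.34, 9.60, 10.14 and 9.55 in wild type and 9.67, 10.09, 9.60 and 9.86 in Arg1 ko. The highest value was that of the library labelled wild type 3, followed by Arg1 ko 2, and the groups overlapped. The difference of 0.15 (standard error 0.17, 95% interval -0.24 to 0.54; limma adjusted p = 0.723) was 0.31 with the library labelled wild type 3 left out, -0.040 with wild type 1 and 2 left out, and -0.20 relative to the fibroblast markers. It was 0.041 without wild type 1 alone, 0.050 without Arg1 ko 2 and 0.090 after the length correction. In the annotation, Bmp4, Bmp5 and Wnt5a share 89, 1878 and 358 exon bases with a gene on the other strand. Those 3 partners were untested, the highest of them at rlog values of 1.33 to 1.59.

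The sequences upstream of the BMP genes are shown because the ligands and their antagonist, which were near each other in level, differ in base composition there. RefSeq (GRCm38.p6) promoter entries were found for 5 of the 9 members, namely Rspo1, Grem1, Wnt2b, Bmp4 and Bmp5. The 250 bases before the start of Grem1 (chr2:113758649-113758898, minus strand), Bmp4 (chr14:46390670-46390919, minus strand) and Bmp5 (chr9:75775115-75775364, plus strand) run 5′ to 3′ as follows, with each CpG dinucleotide in capitals.
Grem1: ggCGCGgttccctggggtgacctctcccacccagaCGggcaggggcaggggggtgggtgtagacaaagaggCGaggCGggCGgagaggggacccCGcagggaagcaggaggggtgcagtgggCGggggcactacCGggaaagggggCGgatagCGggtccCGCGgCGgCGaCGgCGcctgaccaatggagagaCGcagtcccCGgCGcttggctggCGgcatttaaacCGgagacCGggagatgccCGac
Bmp4: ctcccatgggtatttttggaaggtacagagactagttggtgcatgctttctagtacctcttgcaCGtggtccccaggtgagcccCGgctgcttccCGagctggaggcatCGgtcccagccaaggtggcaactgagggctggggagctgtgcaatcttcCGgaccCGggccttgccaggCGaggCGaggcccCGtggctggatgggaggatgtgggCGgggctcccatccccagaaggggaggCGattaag
Bmp5: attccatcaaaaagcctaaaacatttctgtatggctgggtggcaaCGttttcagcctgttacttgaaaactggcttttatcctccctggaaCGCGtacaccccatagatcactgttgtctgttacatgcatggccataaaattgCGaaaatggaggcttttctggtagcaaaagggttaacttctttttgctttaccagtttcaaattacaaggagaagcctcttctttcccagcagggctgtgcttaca
The Grem1 window held 24 CpG dinucleotides at 72.0% GC, more CpG than 88.0% of 32851 windows of the same length, against 11 at 63.2% GC for Bmp4 and 4 at 42.8% GC for Bmp5. The median window held 6, at 52.4% GC, and that of Rspo1 held 22. Motifs were searched on both strands in the windows of these 5 members, and no match was found. CTTTGA, bound by TCF/LEF factors of the Wnt pathway, stood in 13.8% of all windows. The GLI motif of hedgehog signalling, GACCACCCA, stood in 0.225% of them. For TAAACA, bound by forkhead factors, the share was 12.0%. The AP-1 motif TGANTCA was held by 6.75%. A TATA box, searched as TATAAA, was present in 12.4%. The Wnt2b window is not printed because its RefSeq start lies 212 bases inside the GENCODE gene.

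Over the 9 members, 6 differences were positive and 3 negative, with a median of 0.15, beside a median of 0.0064 and 51.2% positive over all tested genes. The 6 positive ones, those of Grem1, Wnt2b, Wnt5a, Bmp4, Bmp5 and Sfrp1, all turned negative when each library was set relative to its fibroblast markers, a step that moved the median of all tested genes to -0.34. The fibroblast list differed by 0.35, with 11 of 12 markers higher and Col1a1, Col1a2, Col3a1 and Col6a2 apart between the groups, beside 2.36% of all tested genes apart with Arg1 ko higher. With its collagens left out of that reference, a choice made after seeing the data, 5 of the 6 stayed positive, and Bmp4 stood at -0.0041. The differences of Rspo3 and Rspo1 were negative under all 18 alternatives tried, from -0.64 to -0.25 and from -0.52 to -0.084. Many of these alternatives could not turn the sign. A change of filter or variance prior leaves each difference as it is, and the fibroblast references lower that of every gene. Because the groups of Rspo3 do not overlap, leaving out libraries could not turn its sign either. No member was called with an adjusted p under 0.05 (limma, 0 of 9), as was no gene at all (0.0% of 16380), while 1 member, Rspo3, had an unadjusted p under 0.05 against 9.1% of all tested genes. Without the library labelled wild type 3, 6.14% of all tested genes were called (1005 genes, limma), and still no member, the lowest adjusted p being 0.0854 for Wnt2b.

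**Figure D3:**
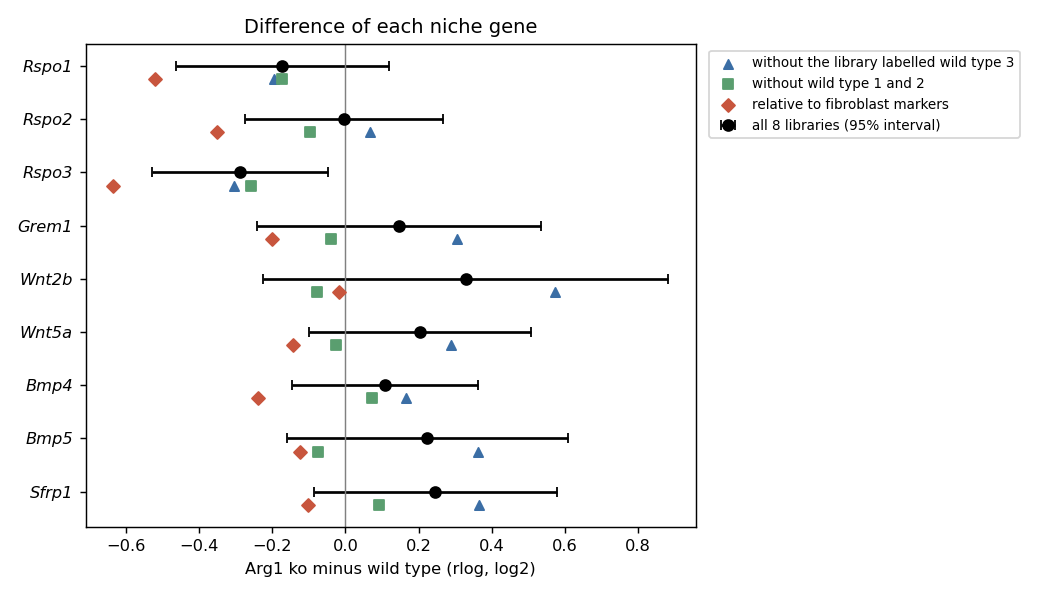
Difference of each niche gene, Arg1 ko minus wild type in rlog units (log2, x axis), with its 95% limma interval in black, and the same difference with the library labelled wild type 3 left out, with wild type 1 and 2 left out, and relative to the fibroblast markers. All intervals but that of Rspo3 include 0, and the differences above 0 turned negative relative to the fibroblast markers.

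Within wild type, the same libraries set the extremes of most members. Over all 8 libraries, the one labelled wild type 3 was highest in only 3 members. The library labelled wild type 3 was the highest wild-type library in 7 of 9 members and the lowest in 1, Rspo3, while wild type 1 and wild type 2 were each the lowest in 4. The SD was larger in wild type than in Arg1 ko in 8 of 9 members, as in 90.9% of all tested genes, and Rspo3 was the exception. Wnt2b, Wnt5a and Bmp5 deviated by -0.60 to -0.32 in wild type 1 and 2, the libraries with low long transcripts and high ribosomal protein genes. The part of these library traits in the values was not tested beyond the length correction. Of these genes only Wnt5a, at 7010 bases, is among the long transcripts, as Wnt2b has 3318 and Bmp5 3822. The longer Grem1 (4148) deviated by -0.39 and -0.13 in wild type 1 and 2, and Sfrp1 (4372) by -0.17 and -0.39. The length correction moved Wnt5a from 0.20 to 0.056, Rspo1 from -0.17 to -0.084 and Grem1 from 0.15 to 0.090, while it left Wnt2b at 0.31, Bmp5 at 0.18 and Rspo3 at -0.29.

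**Figure D4:**
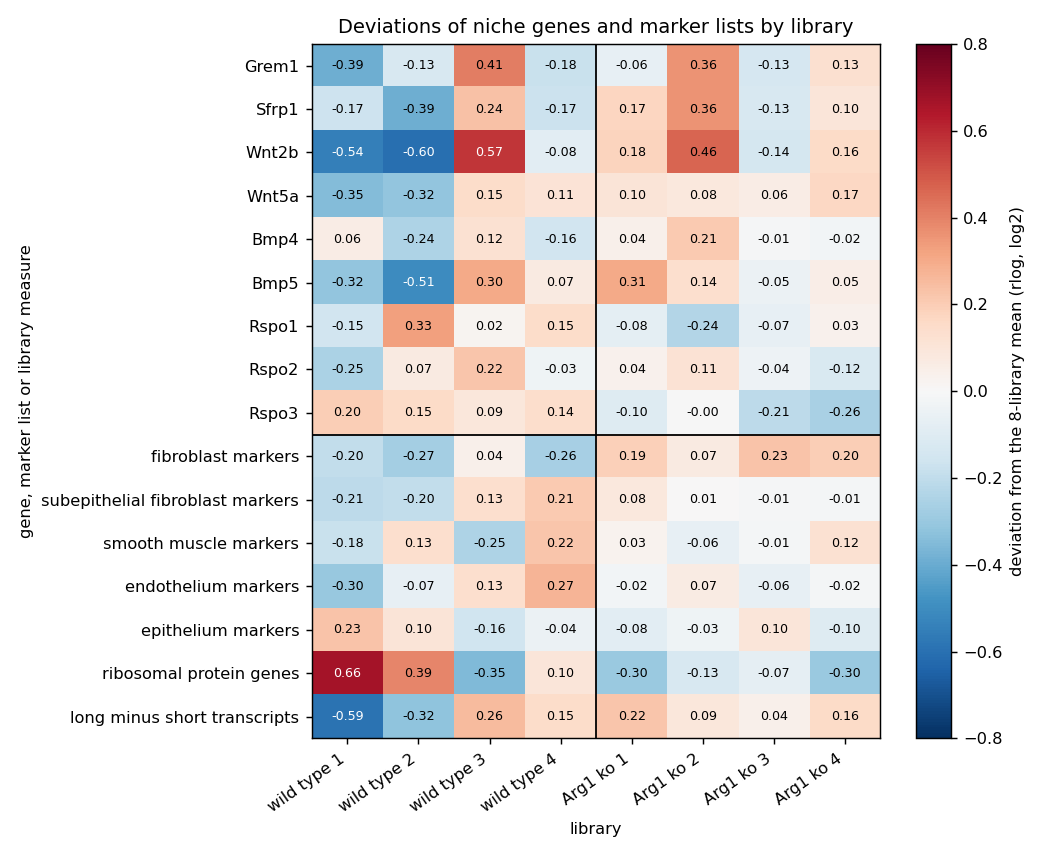
Deviation of each library (columns) from the mean of all 8 in rlog units (colour and printed value) for the 9 niche genes, for the mean of 5 marker lists and for 2 library measures, the ribosomal protein genes and the long minus the short transcripts. Wild type 1 and 2 are low for Wnt2b, Wnt5a and Bmp5 and for long transcripts, and Rspo3 is positive in all 4 wild-type libraries.

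Likeness between profiles was measured as the mean absolute difference between values standardised over the 8 libraries, in SD units, where 0 is an identical profile. Among the members the closest were Wnt2b and Sfrp1 (0.30), Wnt2b and Grem1 (0.35) and Wnt2b and Bmp5 (0.36). Closer profiles existed outside the list. Of 14686 other genes, the most like Wnt5a were Hipk2 (0.093), Pbrm1 (0.098) and Gabpb2 (0.10), and the most like Wnt2b were Usp42 (0.13), Cttnbp2 (0.14) and Srgap2 (0.15). Bmp5 was nearest to Erap1 (0.12), Ecm2 (0.15), a protein of the extracellular matrix, and Grip1 (0.16), and Bmp4 to Cxcl12 (0.19), a chemokine of stromal cells, Pax4 (0.22) and Oas2 (0.24). Sfrp1 was nearest to Nxpe2 (0.18), Lmln (0.18) and Ednra (0.22), an endothelin receptor, and Grem1 to Kcng4 (0.19), Klrc1 (0.21) and Ighv1-52 (0.25). The genes most like Rspo3 were Cers1 (0.20), Xkr9 (0.20) and Chil1 (0.22), those most like Rspo1 were Tgm1 (0.24), Rnd1 (0.27) and Apobec1 (0.28), and those most like Rspo2 were Ccdc84 (0.18), Rcsd1 (0.22) and Slc10a3 (0.22). All of these profiles share the 8 libraries, and the values describe them only.

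Balances between members were read within each library as differences of rlog, and 7 of the 8 examined overlapped between the groups. Grem1 minus Bmp4 was 0.37, 0.94, 1.11 and 0.80 in wild type and 0.72, 0.98, 0.70 and 0.97 in Arg1 ko. Grem1 minus Bmp5 averaged 0.63 ± 0.27 (SD, n = 4) and 0.56 ± 0.25 (SD, n = 4), and Sfrp1 minus Wnt5a 1.36 ± 0.20 (SD, n = 4) and 1.40 ± 0.20 (SD, n = 4). These balances differed between the groups by less than the SD within each. Rspo3 minus Bmp4 was the exception, at -1.75, -1.49, -1.92 and -1.59 in wild type and between -2.12 and -2.03 in Arg1 ko. As Rspo3 by itself was apart between the groups, this balance is not a separate result. Rspo3 minus Wnt2b was 0.29 and 0.30 in wild type 1 and 2, -0.93 and -0.23 in the other wild-type libraries, and -0.92 to -0.52 in Arg1 ko, so those groups overlapped. These pairs were chosen with the members' values known, and no test was made on them.

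The receptors and targets on the epithelial side were described from lists around the members, and no gene in them passed the test over all genes. Of 6 genes of the R-spondin family and its receptors and ligases 4 were tested, Lgr6 and Rspo4 being too weak, and all 4 had positive differences with a median of 0.21. Lgr5, the R-spondin receptor of crypt base stem cells, had 5.39, 4.80, 5.61 and 4.79 in wild type and 5.76, 5.64, 5.94 and 6.05 in Arg1 ko. Its groups did not overlap, which 2.36% of all tested genes showed with Arg1 ko higher, and the difference was 0.70 (limma adjusted p = 0.522, and 0.0376 with the library labelled wild type 3 left out). Lgr4, the broadly expressed receptor, differed by 0.14 and the ubiquitin ligase Znrf3 by 0.28, both overlapping between groups and both negative relative to the fibroblast markers. Of 14 Wnt target genes 13 were tested, among them Lgr5, Znrf3 and Rnf43, which were counted in the R-spondin list as well. Differences were positive in 12 of the 13, with a median of 0.22, beside 51.2% positive over all tested genes. Groups were apart in 3, namely Lgr5, Ephb3 (0.39), which positions crypt cells, and Myc (0.44), a driver of growth. Axin2, a feedback inhibitor that reports canonical Wnt activity, had 8.20, 8.09, 8.85 and 7.88 in wild type and 8.94, 8.78, 8.81 and 8.83 in Arg1 ko. Only the library labelled wild type 3 reached the Arg1 ko range, and the difference of 0.58 had a limma adjusted p of 0.522 with all libraries and of 0.0269 without it. Leaving out the wild-type library nearest to the Arg1 ko values enlarges such differences by construction, and 6.14% of all tested genes were called without it.

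Other Wnt ligands were few, with 5 of 17 tested and Wnt1, Wnt3a and Wnt8a listed at 0 in every library. Wnt11 had 6.92, 7.17, 6.62 and 6.81 in wild type and 6.51, 6.51, 6.31 and 6.57 in Arg1 ko, differing by -0.40 (standard error 0.14, limma adjusted p = 0.522) and by -0.24 without wild type 1 and 2. All Arg1 ko libraries were below all wild-type ones, as in 1.67% of all tested genes. Wnt4 (0.16, but -0.19 relative to the fibroblast markers) and Wnt5b (-0.072) overlapped between groups. All 17 genes of Wnt secretion and reception were tested, 10 with positive and 7 with negative differences and a median of 0.070, none with groups apart. Fzd5 (0.25) and Fzd10 (0.26), both Wnt receptors, had the smallest unadjusted p of that list (0.0406 and 0.0431, where 4.73% of all tested genes had a p under 0.05 with Arg1 ko higher) but were negative relative to the fibroblast markers, and Fzd6 (-0.37) came next with a single high value of 9.04 in wild type 4. Of 10 other secreted Wnt antagonists 7 were tested, 3 positive and 4 negative with a median of -0.015. Sfrp2 (0.24), Sfrp4 (0.17) and Sfrp5 (-0.097), relatives of Sfrp1, overlapped between groups, and Sfrp2 and Sfrp4 were negative relative to the fibroblast markers.

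On the BMP side, all 6 other ligands were tested, 4 positive and 2 negative with a median of 0.075, and Bmp8a (0.36), Bmp8b (0.14) and Bmp6 (0.14) overlapped between groups. The 11 other antagonists had 6 positive and 5 negative differences and a median of 0.027. Fstl1 (0.15), a secreted follistatin-like protein, lay narrowly apart between groups, by 10.66 to 10.85 against 10.86 to 11.02, and Twsg1 (0.25) overlapped. The unadjusted limma p of Fstl1 was 0.109, and 2.36% of all tested genes were apart with Arg1 ko higher. Of 9 receptors and Smads 6 were positive and 3 negative, with a median of 0.11. Acvr2a (0.48), a type II receptor, had the smallest unadjusted p there and overlapped only through the library labelled wild type 3 (limma adjusted p = 0.522, and 0.0284 without it), Bmpr1b (0.15) overlapped, and Smad1 (-0.13), which carries the BMP signal to the nucleus, was lower in all Arg1 ko libraries. Among 6 BMP target genes 4 were positive and 2 negative, with a median of 0.16. Smad7, an inhibitor induced by both BMP and TGF beta, had 9.37, 9.40, 9.65 and 9.17 in wild type and 9.77, 9.76, 9.98 and 9.84 in Arg1 ko. Its groups were apart, with a difference of 0.44 (limma adjusted p = 0.522, and 0.0324 with the library labelled wild type 3 left out). With that library left out, 6.14% of all tested genes were called. For Smad7 and Acvr2a it held the wild-type value nearest to Arg1 ko, so its omission enlarges their differences by construction. Id4 (0.33) and Smad6 (0.29) overlapped between groups. Relative to the fibroblast markers, Bmp8b, Bmp6, Fstl1, Twsg1, Bmpr1b, Id4 and Smad6 had negative differences, whereas Smad7, Acvr2a, Lgr5, Axin2, Ephb3 and Myc remained positive.

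**Figure D5:**
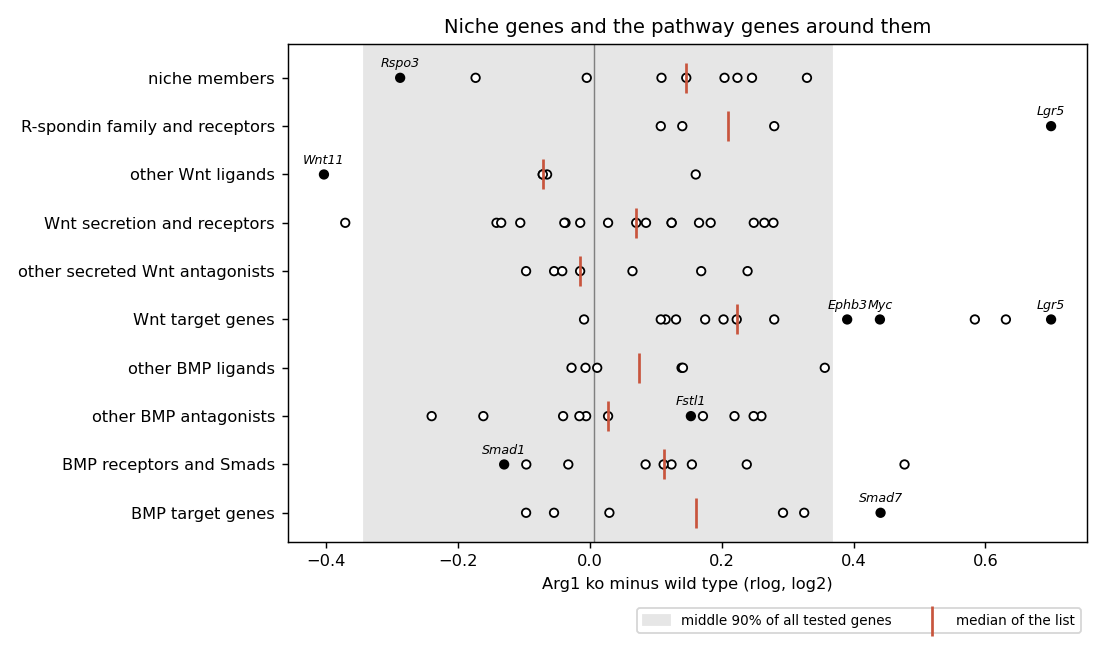
Difference of each tested gene, Arg1 ko minus wild type in rlog units (log2, x axis), by list (y axis), with the list median as a red bar and the middle 90% of all tested genes in grey; filled points are genes whose 4 Arg1 ko values do not overlap the 4 wild-type values. Rspo3 lies inside the grey band, and of the genes plotted Lgr5, at 0.70, lies farthest outside it.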

How the data were processed

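DESeq2 1.16.1, featureCounts, Subread 1.5.3, STAR 2.5.2b and BWA 0.7.14-r1136 appear in the submitters' processing notes, with the build GRCm38 but no order or options. Annotation release and strand setting are not given in the sources consulted. Per the labels' protocols, 1000 ng of total RNA per sample went into a stranded mRNA kit. The authors deposited 1 table of log2 values (rlog, regularised by the authors), from which counts and depth cannot be recovered, so no interval for counting error is given.

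Symbols and gene models came from GENCODE vM21 (GRCm38), with 53274 of 53465 IDs named and all 187 list symbols found. Columns were matched to samples by label, and replicate numbers follow the order of deposit. The 8 libraries came from 8 mice, per the series' design text. A mean rlog of 3 or more was required, and limma 3.58.1 under R 4.3.3 was used (trended empirical Bayes, group term, two-sided, Benjamini-Hochberg over 16380 genes at 0.05). The fit was tested on simulated data with 200 changed genes. It recovered 16.9% of changes of 0.5, 69.4% of changes of 1 and 97.0% of changes of 2 log2 units. The simulated noise was independent between genes and had the same SD in both groups. In the real data the SD was larger in wild type in 90.9% of all tested genes, so these shares need not hold there. The members and lists were chosen with earlier results of these data known. Named are the 9 members and Arg1; of each pathway list, genes with groups apart and the 3 of smallest p; of each cell type list, the 3 of highest mean; and the 3 genes most like each member, without predicted genes, clones and pseudogenes; some results under this rule are not reported here. Lists are described by counts and medians.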

Additional observations from a re-analysis of the deposited data

Results flagged for a closer look

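Of 72 sets of 4 values examined, 2 for each of 36 genes, 3 held a value whose gap to its nearest neighbour took more of the range of its group than the 95% critical value of Dixon's test, which chance passes in about 1 of 20 sets; none was in a niche member. Arg1 in the library labelled wild type 3 was the lowest wild-type value, with a gap ratio of 0.973. Fzd6 in wild type 4 was the highest, with a ratio of 0.847. Bmp8b in wild type 2 was the highest, with a ratio of 0.884.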

How the results depend on the processing

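No paired analysis was possible because the labels give no replicate numbers that the groups share. No niche member passed the threshold under any alternative. The number of genes called ran from 0 to 1005 when libraries were left out in turn, with 1005 only without the library labelled wild type 3, and was 0 under every other alternative of filter, scaling, variance prior, length correction and library. Arg1 ran from -0.51 to -0.31 over the same omissions, with an adjusted p of 0.0418 without that library.

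Relative to the fibroblast markers, where the median of all genes was -0.34, positive differences became negative in Grem1 (-0.20), Wnt2b (-0.018), Wnt5a (-0.14), Bmp4 (-0.24), Bmp5 (-0.12), Sfrp1 (-0.10), Znrf3 (-0.068), Lgr4 (-0.21), Wnt4 (-0.19), Fzd5 (-0.099), Fzd10 (-0.083), Sfrp2 (-0.11), Sfrp4 (-0.18), Bmp8b (-0.21), Bmp6 (-0.21), Fstl1 (-0.19), Twsg1 (-0.099), Bmpr1b (-0.19), Id4 (-0.022) and Smad6 (-0.054), as a shift of every gene makes them, and with the collagens left out Bmp4 alone did so (-0.0041). With wild type 1 and 2 both left out (chosen once the data had been seen), the sign turned in Grem1 (-0.040), Wnt2b (-0.079), Wnt5a (-0.026), Bmp5 (-0.075), Znrf3 (-0.030), Wnt5b (0.012), Sfrp5 (0.10), Bmp8a (-0.039) and Bmp6 (-0.061). Leaving out libraries in turn moved Rspo2 between -0.090 and 0.068, Sfrp5 between -0.18 and 0.036 and Bmp6 between -0.0074 and 0.23; the cause was not tested. Depth is unknown, and rlog makes differences of weak genes such as Rspo2 too small.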

Other observations

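Further cell types had these mean rlog ranges over their marker lists, first in wild type and then in Arg1 ko, and their part in the members' values was not tested. Pericytes (Rgs5, Kcnj8, Pdgfrb) had 9.48 to 10.10 and 9.67 to 9.83, and mesothelium (Krt7, Upk3b, Lrrn4) 7.79 to 8.05 and 7.42 to 7.89. Macrophages (C1qa, C1qb, C1qc) had 9.78 to 10.29 and 9.99 to 10.08, neutrophils (Ly6g, S100a9, S100a8) 6.39 to 7.79 and 6.28 to 6.65, T cells (Cd3g, Cd3e, Cd3d) 5.72 to 6.95 and 6.26 to 6.52, and B cells (Cd79a, Cd79b, Cd22) 4.97 to 6.58 and 5.24 to 5.52. No listed marker was at 0 in every library, and the neutrophil marker Cxcr2 was too weak to be tested.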
